A study of Rattus norvegicus with 9 samples.

Results

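Basement membrane and network collagens were followed across 3 groups of rat cartilage progenitor cells: 10 collagen chain genes, namely Col4a1, Col4a2, Col4a5, Col6a1, Col6a2, Col6a3, Col8a1, Col8a2, Col15a1 and Col18a1. The members were taken by gene name from a deposited table of 34267 genes, and 9 of the 10 names were found, each in 1 row. No row carries the name Col6a3. A row named AABR07068316.1 (ENSRNOG00000019648) is described there as the collagen type VI alpha 3 chain. That row is reported apart as the Col6a3 row, outside every count of the 9 members. The table describes each of the rows as a collagen chain of the type its symbol names.

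The cells were wild-type primary cultures from condylar cartilage, the cartilage of the jaw joint. The groups were P3, the passage 3 control; P9, passage 9 cells, used by the series as a model of replicative senescence; and FFSS, cells of passage 3 under flow fluid shear stress, used as a model of mechanically induced degeneration. Each group had 3 libraries of polyadenylated RNA, and the strength and length of the shear, the animals and the number of cultures were not given in the sources used here. P-values therefore measure the spread between these libraries, which may be technical.

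Collagens are trimers of chains that wind into a triple helix. Type IV collagen, mostly made of alpha 1 and alpha 2 chains, forms the sheet-like network of basement membranes, and its alpha 5 chain joins other trimers in particular tissues. Type VI collagen forms beaded microfibrils that in cartilage surround the chondrocyte as the pericellular matrix, type VIII forms hexagonal lattices known from the cornea and the vessel wall, and types XV and XVIII carry glycosaminoglycan chains and sit at the border between basement membranes and the stroma.

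Several of the genes are neighbours that encode partner chains. In the deposited Rnor_6.0 table, Col4a1 (ENSRNOG00000016281, chr16:83522162-83632153, plus strand) and Col4a2 (ENSRNOG00000023972, chr16:83387364-83438561, minus strand) were neighbours that run in opposite directions. There 83601 bases lay between them. In the RefSeq table of build GRCr8 their start sites were 77 bases apart, so that 1 stretch of DNA precedes both genes in that build. Col18a1 (ENSRNOG00000001229, chr20:12225202-12332858), Col6a1 (ENSRNOG00000001249, chr20:12658065-12675561) and Col6a2 (ENSRNOG00000001254, chr20:12773427-12801180) followed each other on the plus strand of chromosome 20, with 325207 and 97866 bases between them. Col8a2 (ENSRNOG00000010841, chr5:144308611-144335172) and Col15a1 (ENSRNOG00000060381, chr5:62840360-62950240) lay far apart on chromosome 5, Col8a1 (ENSRNOG00000039668) at chr11:44877859-45007891, and Col4a5 (ENSRNOG00000018951) at chrX:112769645-112983685, all on the plus strand. The Col6a3 row lay at chr9:97926787-98004546 on the minus strand, and 0 other genes of the table overlapped any of these rows.

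The DNA before the start is shown for the pair that shares it, and for the 4 genes whose chain ratios moved most between groups, from RefSeq on GRCr8. The first is the plus strand between the Col4a2 and Col4a1 start sites, chr16:84885521-84885596. The other 4 are the 250 bases before the start, all on the plus strand: Col8a1 chr11:56246532-56246781, Col8a2 chr5:143870519-143870768, Col15a1 chr5:66297296-66297545 and Col18a1 chr20:11473395-11473644. Capitals mark GC boxes, GGGCGG on either strand.
Col4a2 to Col4a1: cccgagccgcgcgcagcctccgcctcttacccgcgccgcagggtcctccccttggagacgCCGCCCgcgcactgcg
Col8a1: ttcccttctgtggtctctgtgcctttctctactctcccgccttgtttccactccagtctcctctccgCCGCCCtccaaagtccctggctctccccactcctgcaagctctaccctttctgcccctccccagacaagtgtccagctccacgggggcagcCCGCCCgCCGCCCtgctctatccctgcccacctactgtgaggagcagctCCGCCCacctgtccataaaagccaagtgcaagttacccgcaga
Col8a2: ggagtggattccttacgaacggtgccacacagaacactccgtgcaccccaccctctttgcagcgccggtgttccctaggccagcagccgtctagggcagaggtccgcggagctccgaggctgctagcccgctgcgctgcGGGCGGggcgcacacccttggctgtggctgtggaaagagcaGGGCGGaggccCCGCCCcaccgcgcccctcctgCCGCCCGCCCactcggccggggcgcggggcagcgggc
Col15a1: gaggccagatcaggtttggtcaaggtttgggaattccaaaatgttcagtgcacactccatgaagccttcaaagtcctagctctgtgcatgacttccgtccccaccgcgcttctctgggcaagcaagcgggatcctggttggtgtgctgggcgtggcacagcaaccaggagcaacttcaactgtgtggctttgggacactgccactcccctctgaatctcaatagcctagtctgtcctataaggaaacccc
Col18a1: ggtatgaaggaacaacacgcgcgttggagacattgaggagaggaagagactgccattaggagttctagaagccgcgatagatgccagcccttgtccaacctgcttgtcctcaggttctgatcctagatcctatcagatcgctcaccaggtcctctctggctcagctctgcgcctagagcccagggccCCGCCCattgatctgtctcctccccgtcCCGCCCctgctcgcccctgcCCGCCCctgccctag

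RefSeq windows of 300 bases, from 250 before to 50 after a start, were matched for 9 of the 10 genes; Col6a2 had no entry. The GC box was found, on either strand, in 33.1% of all 33469 such windows. The CCAAT box, searched by these letters, was found in 37.5%. The TATA box, searched as TATAAA, was found in 14.2%, and the AP-1 motif TGANTCA in 7.33%. Col8a2 held 5 GC boxes, of which the last 2 overlap, Col8a1 held 4, Col18a1 held 3, Col4a1 and Col4a2 held 2 each, Col4a5 held 1, and Col15a1, Col6a1 and Col6a3 held 0. The windows of Col4a1 and Col4a2 share 176 bases, and the GC boxes counted for these 2 genes are the same sites. The CCAAT box was found in these 2 windows, 2 times in that of Col4a1 and 1 time in that of Col4a2. The match of Col4a2 is also 1 of the 2 of Col4a1. Col6a1 held 1 AP-1 match, and a TATA box was found in none of the 9. A match describes letters in a window and does not show binding.

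Expression is given in FPKM, fragments scaled by gene length and by library size, which allows levels of different genes to be set side by side. Between 13264930 and 15323790 fragments per library were assigned to genes. The mesenchymal progenitor markers were all measured (9 of 9 tested, summed level 2127 to 2843 FPKM over the 9 libraries). The cartilage list had 7 of 11 markers tested and summed to 957 to 1072 FPKM in P3, in P9 to 786 to 816, and in FFSS to 505 to 604. Most of that sum was Col11a1 (809 to 918 in P3 and 194 to 307 in P9) and Acan (122 to 135 in P3 and 499 to 609 in P9). In FFSS, Col11a1 (405 to 523) and Acan (29.3 to 48.2) lay below P3. Sox9 (4.06 to 4.79 in P3 and 9.81 to 15.3 in FFSS) went the other way. So did Sox6 (4.99 to 6.07 and 7.58 to 9.57) and Sox5 (0.251 to 0.802 and 1.99 to 2.65). Comp and Prg4 overlapped between P3 and FFSS. Other cartilage markers were at or near 0 in all 9 libraries: Matn1 at 0, Cnmd at most 0.245, Col9a1 at most 0.407 and Col2a1 at most 1.06 FPKM. FFSS replicate 1 stood apart from its group: it correlated with FFSS replicates 2 and 3 at r = 0.915 and 0.947 across genes, against 0.969 between those 2. With P3 replicates 1, 2 and 3 it correlated at r = 0.942, 0.936 and 0.945, above its value with FFSS replicate 2. Group values are means ± SD with n = 3 libraries, differences are log2(FPKM + 1) of the first group minus the second with their standard error (SE), and a gene was called when its limma Benjamini-Hochberg adjusted p over the 13059 genes tested was under 0.05. In bulk RNA, fewer cells of a type and less RNA per cell cannot be told apart.

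Among the 9 members, passage 9 cells had 5 called genes, against 9.83% of all genes tested. Col8a2, Col6a1 and Col6a2 were lower (4.44% of all genes were called lower) and Col18a1 and Col8a1 were higher (5.39% called higher), while the type IV chains and Col15a1 were not called. Under shear stress a single member, Col15a1, was called, and it was lower (1 of 9; 21.8% of all genes were called and 10.4% were called lower). The median difference of the 9 members was -0.33 in P9 against P3 and -0.28 in FFSS against P3, beside -0.0026 and -0.011 over all genes tested. Groups did not overlap for 7 of 9 members in P9 against P3 (40.1% of all genes) and for 4 of 9 in FFSS against P3 (42.4%). The share in FFSS was thus near that of all genes.

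**Figure D1:**
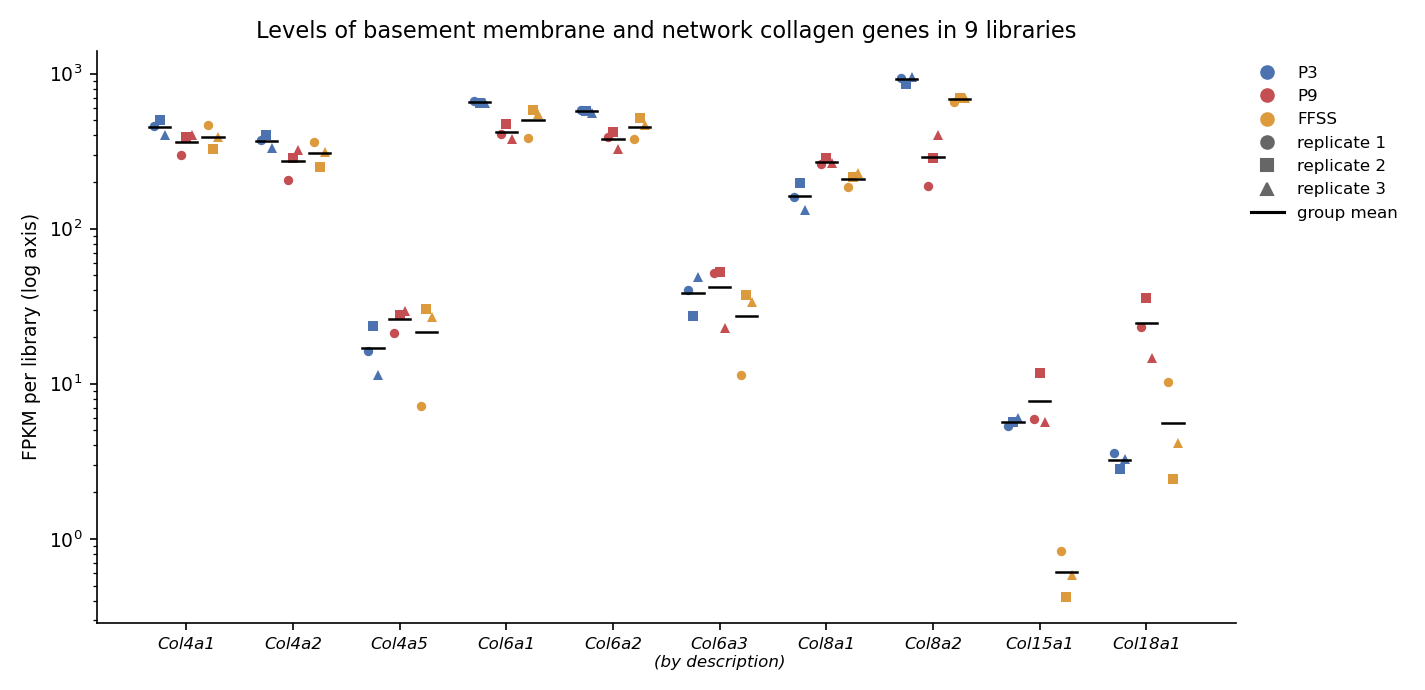
FPKM of each gene in every library on a log axis, with colours for P3, P9 and FFSS, shapes for replicates and a bar at each group mean. Col8a2 falls from 917 in P3 to 291 in P9, Col18a1 rises from 3.22 to 24.6, and the FFSS points of Col15a1 lie below 0.84.

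The levels spanned a wide range. In P3 the order from the highest mean was Col8a2, Col6a1, Col6a2, Col4a1, Col4a2, Col8a1, the Col6a3 row, Col4a5, Col15a1 and Col18a1, and no neighbours in that order overlapped. In P9 the order was Col6a1, Col6a2, Col4a1, Col8a2, Col4a2, Col8a1, the Col6a3 row, Col4a5, Col18a1 and Col15a1. Neighbours among the first 6 overlapped, so their order is not resolved, and Col18a1 now lay above Col15a1 without overlap. In FFSS, Col8a2 again led without overlap, and Col15a1 came last, below Col18a1, without overlap. Of all assigned fragments, the 9 members together took 1.32% to 1.38% in the P3 libraries. In P9 they took 0.814% to 1.03% and in FFSS 1.07% to 1.16%, so the 3 groups did not overlap in this sum.

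Type IV collagen is the scaffold of the basement membrane. Col4a1 measured 458, 498 and 404 FPKM in P3, 300.4, 388 and 401 in P9, and 463, 325 and 389 in FFSS. Its P9 values lay just below the P3 range and its FFSS values overlapped it. The difference in P9 was -0.33 (SE 0.17, adjusted p = 0.301) and in FFSS -0.22 (SE 0.17, adjusted p = 0.379), and neither was called. Col4a2, its partner chain, measured 375, 403 and 332 FPKM in P3, 207, 287 and 321 in P9, and 361, 249 and 310.0 in FFSS. Here too the P9 values lay under the P3 range, by a small margin, with a difference of -0.46 (SE 0.19, adjusted p = 0.191). The FFSS difference of -0.28 (SE 0.19, adjusted p = 0.321) was not called, and its 95% interval ran from -0.72 to 0.16.

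On GRCr8, Col4a1 and Col4a2 start on either side of the 76 bases shown above, and the ratio of their levels varied little. It was 1.22, 1.24 and 1.22 in P3, 1.45, 1.35 and 1.25 in P9, and 1.28, 1.31 and 1.25 in FFSS. Both groups lay above P3 without overlap, by 0.14 in P9 and 0.06 in FFSS on the log2 scale, each with the smallest p that 3 against 3 libraries allow (exact permutation test, two-sided, p = 0.1; adjusted p = 0.167 over 10 ratio tests). No ratio test in this design could pass the threshold.

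Col4a5, the chain of the alpha 5 trimers, was expressed at a far lower level. It measured 16.2, 23.7 and 11.3 FPKM in P3, 21.1, 27.9 and 29.2 in P9, and 7.17, 30.2 and 26.8 in FFSS. All groups overlapped, and FFSS replicate 1 was the lowest of the 9 libraries. The difference was 0.63 in P9 (SE 0.47, adjusted p = 0.487) and 0.15 in FFSS (SE 0.47, adjusted p = 0.848), which turned to between -0.20 and 0.76 as libraries were left out in turn. Of the 8 other chains of network and microfibrillar collagens listed (Col4a3, Col4a4, Col4a6, Col6a4, Col6a5, Col6a6, Col10a1 and Col28a1), only Col4a3 passed the filter. It measured 0.776 ± 0.31 FPKM in P3, 1.92 ± 0.47 in P9 and 0.285 ± 0.17 in FFSS. Only its P9 libraries reached 1 FPKM, so it passed through the group where it was high. Its tests are therefore no support for a rise in P9. Col4a3 was not called against P3 in either group (adjusted p = 0.0707 in P9 and 0.151 in FFSS). The first was 0.0459 without FFSS replicate 1, 0.0432 with voom on fragments, 0.0085 with array weights and 0.0447 from the 2 groups alone. The second was 0.0066 with array weights. Col4a3 was called higher in P9 against FFSS, under the same limit.

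Type VI collagen is the main microfibril of the pericellular matrix, and each of its monomers needs an alpha 1 chain, an alpha 2 chain and 1 more. Col6a1 measured 668, 651 and 646 FPKM in P3, 410.4, 475 and 378 in P9, and 387, 585 and 545 in FFSS. Every P9 and FFSS library lay below every P3 library. Col6a1 was called lower in P9, with a difference of -0.64 (SE 0.17, adjusted p = 0.0437), and was not called in FFSS (-0.39, SE 0.17, adjusted p = 0.121). Col6a2 gave the same order of groups: 581, 575 and 555 FPKM in P3, 388, 417 and 329 in P9, and 378, 519 and 463 in FFSS. Its difference was -0.60 in P9 (SE 0.15, adjusted p = 0.0334) and -0.34 in FFSS (SE 0.15, adjusted p = 0.122).

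The calls for these 2 chains in P9 were close to the threshold. Leaving out any P3 or P9 library, or FFSS replicate 3, ended both calls, with adjusted p from 0.0643 to 0.155 for Col6a1 and from 0.0571 to 0.130 for Col6a2, while the differences stayed between -0.73 and -0.50. The ratio of Col6a1 to Col6a2 stayed between 1.02 and 1.18 in all 9 libraries, so the neighbouring genes of this collagen held nearly the same proportion in every group.

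The Col6a3 row, annotated as a processed transcript of 10988 bases, was far lower than its partner chains. It measured 40.01, 27.3 and 48.7 FPKM in P3, 52.0, 52.3 and 22.8 in P9, and 11.4, 37.4 and 33.8 in FFSS. Its groups overlapped throughout, and 1 library in P9 and 1 in FFSS lay well below the rest of its group. The difference was 0.07 in P9 (SE 0.47, adjusted p = 0.951), which was between -0.15 and 0.46 with libraries left out in turn, and -0.60 in FFSS (SE 0.47, adjusted p = 0.385), which was between -0.90 and -0.08 in the same way. The ratio of Col6a1 to this row was 13.3 to 23.8 in P3, in P9 it was 7.89 to 16.6, and in FFSS 15.6 to 33.9. These ranges overlapped, with exact permutation p = 0.2 for P9 and 0.7 for FFSS (adjusted p = 0.25 and 0.7), and the FFSS difference changed sign without FFSS replicate 1, from 0.23 to -0.13 on the log2 scale.

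Type VIII collagen is a short-chain collagen whose chains can form trimers of their own or together, and its 2 genes moved in opposite directions. Col8a2 had the highest mean of the 10 in P3, with 936, 862 and 954 FPKM, then 189.6, 284 and 400.3 in P9, and 656, 701 and 694 in FFSS. Its 3 groups did not overlap. Col8a2 was 3.15-fold lower in P9 by the ratio of means, a difference of -1.72 (SE 0.23, adjusted p = 0.0023), and this call held with every library left out. The FFSS difference of -0.42 (SE 0.23, adjusted p = 0.213) was not called. P9 lay below FFSS (-1.29, SE 0.23, adjusted p = 0.0036), where 31.4% of all genes were called and 15.3% were called lower.

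Col8a1, the other chain, measured 159, 198 and 132 FPKM in P3, 263, 284 and 267 in P9, and 187, 215 and 229 in FFSS. P9 lay above both other groups, while FFSS overlapped P3. It was called higher in P9, with a difference of 0.75 (SE 0.15, adjusted p = 0.0162), and not in FFSS (0.38, SE 0.15, adjusted p = 0.110). Without P3 replicate 1, P3 replicate 3, P9 replicate 2 or P9 replicate 3 the P9 call was lost, with adjusted p = 0.0732, 0.0658, 0.0769 and 0.0533.

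Because the 2 chains went opposite ways, their ratio changed more than either. Col8a1 to Col8a2 was 0.170, 0.230 and 0.139 in P3, 1.38, 0.999 and 0.666 in P9, and 0.285, 0.307 and 0.329 in FFSS. In P3 the alpha 2 chain was thus in excess in every library, and in P9 the chains were at similar levels, with 1 library above 1. The log2 ratio was higher by 2.47 in P9 and by 0.80 in FFSS (exact permutation p = 0.1 each, the smallest possible; adjusted p = 0.167).

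**Figure D2:**
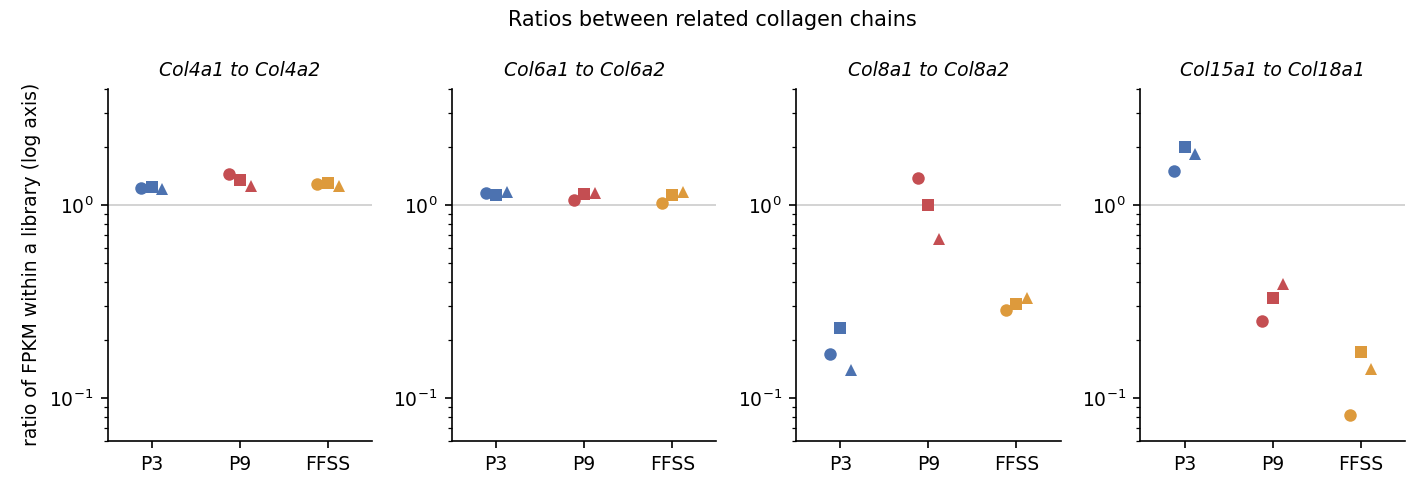
Ratio of FPKM between related chains within each library, on a log axis, for 4 pairs, with groups on the horizontal axis and shapes for replicates. Col4a1 to Col4a2 stays between 1.22 and 1.45 and Col6a1 to Col6a2 between 1.02 and 1.18, whereas Col8a1 to Col8a2 runs from 0.139 to 1.38 and Col15a1 to Col18a1 from 0.0816 to 2.003.

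Types XV and XVIII are related proteins that form the multiplexin family, and both carry a C-terminal fragment, called endostatin in type XVIII, that is released by proteases. Their genes were the lowest of the 10 in P3. Of the members, Col18a1 had the widest difference from P3 in P9 and Col15a1 the widest in FFSS. Col15a1 measured 5.35, 5.63 and 6.03 FPKM in P3, 5.89, 11.7 and 5.70 in P9, and 0.837, 0.423 and 0.583 in FFSS. All FFSS libraries lay far below all others, and these values rest on 65, 32 and 45 fragments against 403 to 462 in P3. Col15a1 fell in FFSS by 9.23-fold in the ratio of means, a difference of -2.05 (SE 0.24, adjusted p = 0.0013), and this call held with every library left out. In P9 it was not called (0.33, SE 0.24, adjusted p = 0.475), where 1 library, replicate 2, was high, and the difference ran from 0.03 to 0.49 with libraries left out in turn.

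Col18a1 measured 3.55, 2.81 and 3.29 FPKM in P3, 23.4, 35.6 and 14.7 in P9, and 10.3, 2.44 and 4.15 in FFSS. All P9 libraries lay above the others, while in FFSS replicate 1 lay well above P3 and the others lay close to it. Its mean was 7.63-fold higher in P9 than in P3, a difference of 2.52 (SE 0.42, adjusted p = 0.0063), and this call held with every library left out. The FFSS difference of 0.47 (SE 0.42, adjusted p = 0.450) was not called and ran from 0.0017 to 0.86 with libraries left out in turn. The ratio of Col15a1 to Col18a1 was 1.51, 2.003 and 1.83 in P3, 0.252, 0.329 and 0.388 in P9, and 0.0816, 0.173 and 0.140 in FFSS, so that the order of the 2 reversed in both groups. The log2 ratio was lower by -2.48 in P9 and -3.81 in FFSS (exact permutation p = 0.1 each, the smallest possible; adjusted p = 0.167).

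**Figure D3:**
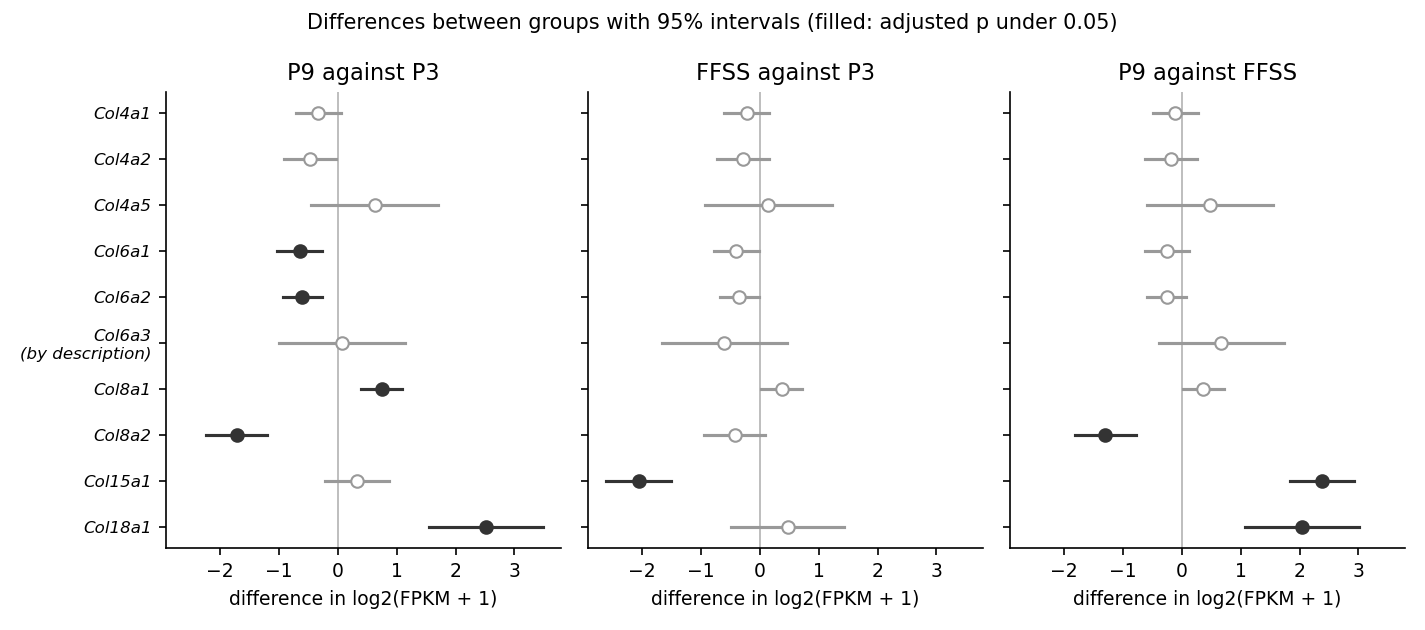
Differences in log2(FPKM + 1) with 95% intervals for each gene in 3 comparisons; filled points have an adjusted p under 0.05. In P9 against P3, 5 of the 9 members are filled, in FFSS against P3 1, and in P9 against FFSS 3.

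P9 and FFSS share the P3 libraries as their control, so they were also compared directly. Of the 9 members, 3 were called (31.4% of all genes): Col15a1 was higher in P9 by 2.38 (SE 0.24, adjusted p = 0.0002), Col18a1 was higher by 2.04 (SE 0.42, adjusted p = 0.0073), and Col8a2 was lower, as given above. Called higher were 16.1% of all genes. The groups did not overlap for 4 of 9 members, among 42.2% of all genes. Col8a1 (0.37, SE 0.15, adjusted p = 0.0979) was not called. Without FFSS replicate 1, Col6a1 (-0.43, adjusted p = 0.0212) and Col6a2 (-0.38, adjusted p = 0.0394) were called lower too, and 5 members were called in all.

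Marker lists of 7 other cell types were set beside these differences, each by its summed level. In P3 the endothelial list (1 of 10 genes tested) summed to 1.30 to 1.48 FPKM, in P9 to 2.92 to 7.08, mostly Flt1, and in FFSS to 0.857 to 1.10, with Cdh5, Tie1, Emcn and Cldn5 at 0 in every library. Kdr went the other way, with 0.727 to 0.836 in P3 and 0.0195 to 0.0725 in P9. Tek and Esam, at most 0.225 and 0.398 in P9, lay above P3 there. The pericyte and smooth muscle list (5 of 9 tested, with Rgs5 at 0) was led by Acta2 and Tagln: in P3 it summed to 3622 to 4311 FPKM, in P9 to 8299 to 9769, and in FFSS to 3157 to 4623. The macrophage and leukocyte list (2 of 9 tested), mostly Cd14, summed in P3 to 9.60 to 11.2, in P9 to 5.14 to 5.66, and in FFSS to 42.3 to 106. The glial list (3 of 7 tested), mostly S100b, summed to at most 30.6 FPKM in P3 and P9 and at least 65.6 in FFSS. The skeletal muscle list (1 of 6 tested), mostly Acta1, summed in P3 to 2.76 to 16.7, in P9 to 35.8 to 43.4, and in FFSS to 0.640 to 2.03. The epithelial list (1 of 6 tested, with Krt5 at 0) stayed at or under 2.13 FPKM, with 0.243 to 0.558 in P3, in P9 1.32 to 2.13, and in FFSS 0.207 to 1.14. The adipocyte list (1 of 6 tested) was at most 1.10 FPKM in P3 and P9 and, mostly through Fabp4, 2.13 to 14.3 in FFSS. Mitochondrial fragments were 2.12% to 2.32% of the total in P3, in P9 2.31% to 2.56% and in FFSS 2.96% to 3.75%. The part of any of these, or of the cartilage list, in the collagen differences was not tested.

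Genes that act with these collagens were counted in 6 lists of partners, receptors, processing enzymes and proteases. The first list, laminins, nidogens, perlecan and other basement membrane glycoproteins, had 20 of 27 genes tested. P9 had 3 higher and 2 lower (median difference 0.07), and FFSS had 3 lower (median -0.28), beside the 9.83% and 21.8% called over all genes. The counts of every list below are to be set against these shares, which were 5.39% higher and 4.44% lower in P9, and 11.4% higher and 10.4% lower in FFSS. Lama5, a laminin chain of mature basement membranes, measured 1.11 ± 0.77 FPKM in P3 and 18.2 ± 4.32 in P9 (adjusted p = 0.0003). Outside P9 only P3 replicate 2 reached 1 FPKM (1.93), so Lama5 passed the filter through the group where it was high. Its test is therefore no support for a rise in P9, and the count higher in P9 includes it. Lama2, another laminin chain, fell in P9 from 4.76 ± 0.65 to 0.7002 ± 0.27 (adjusted p = 0.0027). Tinagl1, a basement membrane glycoprotein, rose from 4.81 ± 2.59 to 23.2 ± 3.20 (adjusted p = 0.0102), and Nid1, which links laminin to type IV collagen, from 121 ± 22.5 to 269 ± 48.2 (adjusted p = 0.0151). In FFSS, the perlecan gene Hspg2, listed under another name, fell from 192 ± 25.0 to 49.7 ± 21.6 FPKM (adjusted p = 0.0033), and Npnt, an integrin ligand, from 18.9 ± 0.51 to 7.08 ± 2.85 (adjusted p = 0.0073). Lama2 fell in FFSS to 2.03 ± 1.04 (adjusted p = 0.0237). Fras1 was the other gene lower in P9, and was named after its values were seen. The Nid1 call was lost without P3 replicate 1, P3 replicate 3, P9 replicate 1 or P9 replicate 2 (adjusted p up to 0.0700). The Lama2 call in FFSS was lost without any 1 of the P3 libraries or FFSS replicate 2 or 3 (adjusted p up to 0.0847), and with no filter. Leaving out FFSS replicate 1 made the count higher in P9 6 and the count lower in FFSS 7. The latter was 5 without P3 replicate 3, and the count lower in P9 was 1 without any single P3 or P9 library.

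The receptors list, integrin chains, discoidin receptors and others that bind collagens and basement membranes, had 17 of 19 genes tested. P9 had 4 higher and 1 lower (median 0.21), and FFSS 2 higher and 3 lower (median -0.04). In P9, the laminin receptor chains Itga3 and Itga7 rose from 14.1 ± 2.28 to 31.6 ± 2.53 FPKM (adjusted p = 0.0013) and from 1.497 ± 0.36 to 10.6 ± 1.69 (adjusted p = 0.0023). Itga1, a collagen-binding integrin chain, rose from 19.5 ± 1.74 to 48.1 ± 12.9 (adjusted p = 0.0030), and the collagen-internalising receptor Mrc2 fell from 112 ± 7.08 to 36.9 ± 15.0 (adjusted p = 0.0049). In FFSS, Cspg4, a proteoglycan that binds type VI collagen, fell from 77.0 ± 2.94 to 24.1 ± 2.51 FPKM (adjusted p = 8.5e-05), Itga6 fell from 10.3 ± 0.29 to 3.78 ± 1.30 (adjusted p = 0.0046), and Itga2 from 5.12 ± 1.26 to 0.893 ± 0.71 (adjusted p = 0.0083). The proteoglycan Sdc4 rose from 65.7 ± 7.28 to 175 ± 48.7 (adjusted p = 0.0052). The others called were Antxr1, higher in P9, and Antxr2, higher in FFSS, named after their values were seen. The count higher in P9 became 7 without FFSS replicate 1, the count lower in P9 became 3 in the same fit and 2 with FFSS replicate 2 left out, and the count higher in FFSS was 1 without any P3 library, P9 replicates 2 or 3, or FFSS replicate 3.

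Enzymes that fold, modify and crosslink collagen had 21 of 24 genes tested. P9 had 2 higher and 3 lower (median -0.18), and FFSS 4 higher and 2 lower (median 0.26). Lox, which oxidises lysines for crosslinks, fell in P9 from 1011 ± 56.9 to 353 ± 52.2 FPKM (adjusted p = 0.0003), and Plod2, a lysyl hydroxylase, from 559 ± 23.6 to 233 ± 27.1 (adjusted p = 0.0140). Pxdn, the peroxidase that crosslinks type IV collagen, rose from 80.2 ± 1.66 to 142 ± 30.4 (adjusted p = 0.0158), and Tgm2, a transglutaminase, from 0.885 ± 0.27 to 5.16 ± 0.94 (adjusted p = 0.0019). In FFSS, Tgm2 rose to 2.91 ± 1.001 (adjusted p = 0.0129) and Ppib, a peptidyl-prolyl isomerase of the collagen-folding machinery, from 429 ± 8.86 to 617 ± 89.3 (adjusted p = 0.0210). Sec23a, a coat protein of the export vesicles that carry collagen, fell from 40.7 ± 0.58 to 23.1 ± 4.36 (adjusted p = 0.0125), and Loxl2 from 214 ± 33.2 to 119 ± 30.5 (adjusted p = 0.0168). The others called were P4ha2, lower in P9, and Loxl4 and P4ha3, higher in FFSS, named after their values were seen. The Plod2 and Pxdn calls were lost without any 1 of the P3 libraries or P9 replicate 1 or 2 (adjusted p up to 0.0680 and 0.0777). In FFSS, the Ppib call was lost without any 1 of the P3 libraries (up to 0.0835), that of Loxl2 without P3 replicate 1 or 2 (up to 0.0683), and that of Tgm2 without P3 replicate 3 (0.0508). The count higher in FFSS became 11 without FFSS replicate 1, 2 without P9 replicate 2, FFSS replicate 2 or FFSS replicate 3, 1 without P3 replicate 1 or 2, and 0 with P3 replicate 3 left out. The count lower in FFSS was 1 without P3 replicate 1 or 2. In P9 the higher count was 1 without any P3 library or P9 replicates 1 or 2, and the lower count was 1 without P3 replicates 1 or 2 or P9 replicates 1 or 2.

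Proteases and their inhibitors had 19 of 23 genes tested, and here FFSS had 7 higher and 2 lower (median 0.58), where 11.4% of all genes were called higher, and P9 had 1 higher and 2 lower (median -0.33), where 5.39% were called higher. The difference between these counts was not tested. Mmp2, a gelatinase that also cuts type IV collagen, rose in FFSS from 658 ± 53.2 to 1729 ± 241 FPKM (adjusted p = 0.0007), and Mmp3, stromelysin, from 11.3 ± 6.89 to 43.9 ± 11.8 (adjusted p = 0.0086). Mmp3 fell in P9 to 0.815 ± 0.20 (adjusted p = 0.0033). Adamts1 fell in FFSS from 114 ± 14.2 to 43.5 ± 10.97 (adjusted p = 0.0019), and Tll1, a procollagen-processing protease, from 30.5 ± 9.43 to 13.6 ± 2.20 (adjusted p = 0.0089). In P9, Htra1, a secreted serine protease, rose from 629 ± 17.7 to 1102 ± 51.7 (adjusted p = 0.0110), and the inhibitor Timp2 fell from 1396 ± 13.6 to 813 ± 161 (adjusted p = 0.0147). The others higher in FFSS were Plau, Htra1, Plat, Ctsb and Adamts4, named after their values were seen. The Htra1 call in P9 was lost without P3 replicate 1, P3 replicate 3 or P9 replicate 2 (adjusted p up to 0.0559). That of Timp2 was lost without any 1 of the P3 libraries (up to 0.0653) and with no filter. The count higher in FFSS was 3 without P3 replicate 1, P3 replicate 2 or FFSS replicate 3. In P9 the lower count was 1 without any P3 library, 8 without FFSS replicate 1 and 5 with FFSS replicate 2 left out. The higher count there was 0 without P3 replicate 1, P3 replicate 3 or P9 replicate 2, and 3 without FFSS replicate 1.

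The list of microfibril proteins and type VI collagen partners had 9 of 13 genes tested. It had 2 higher and 2 lower in P9 (median -0.05) and 3 higher and 2 lower in FFSS (median 0.24). Mfap5, a microfibril protein, rose in P9 from 217 ± 23.6 to 530.4 ± 83.4 FPKM (adjusted p = 0.0040), and Fbn1, fibrillin, from 92.3 ± 13.5 to 194 ± 47.3 (adjusted p = 0.0122). Mfap2 fell in P9 from 2.84 ± 2.18 to 0.142 ± 0.15 (adjusted p = 0.0345), and Dcn, decorin, from 20.03 ± 12.2 to 2.13 ± 1.48 (adjusted p = 0.0376). In FFSS, Emilin1 rose from 56.2 ± 9.14 to 213 ± 41.1 FPKM (adjusted p = 0.0008) and Matn4, a matrilin, from 1.45 ± 0.18 to 9.21 ± 4.54 (adjusted p = 0.0032). Fn1, fibronectin, fell from 2231 ± 90.2 to 1134 ± 293 (adjusted p = 0.0078), and Fbn1 fell to 48.3 ± 8.37 (adjusted p = 0.0142). Dcn was also called higher in FFSS, named after its values were seen. The Fbn1 calls were lost without P3 replicate 1 or 3 in P9 (adjusted p up to 0.0599) and without P3 replicate 1 or 2 in FFSS (up to 0.0601). Those of Mfap2 and Dcn in P9 were lost without P3 replicate 1 or 3 or any 1 of the P9 libraries (up to 0.118 and 0.142), with no filter and with voom on fragments, and that of Dcn also without FFSS replicate 3. Of this list, the lower count in P9 was 0 with any P9 library or P3 replicate 1 or 3 left out, and 1 with FFSS replicate 3 left out. The higher count in P9 was 1 with P3 replicate 1 or 3 left out, as was the lower count in FFSS with P3 replicate 1 or 2 left out.

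**Figure D4:**
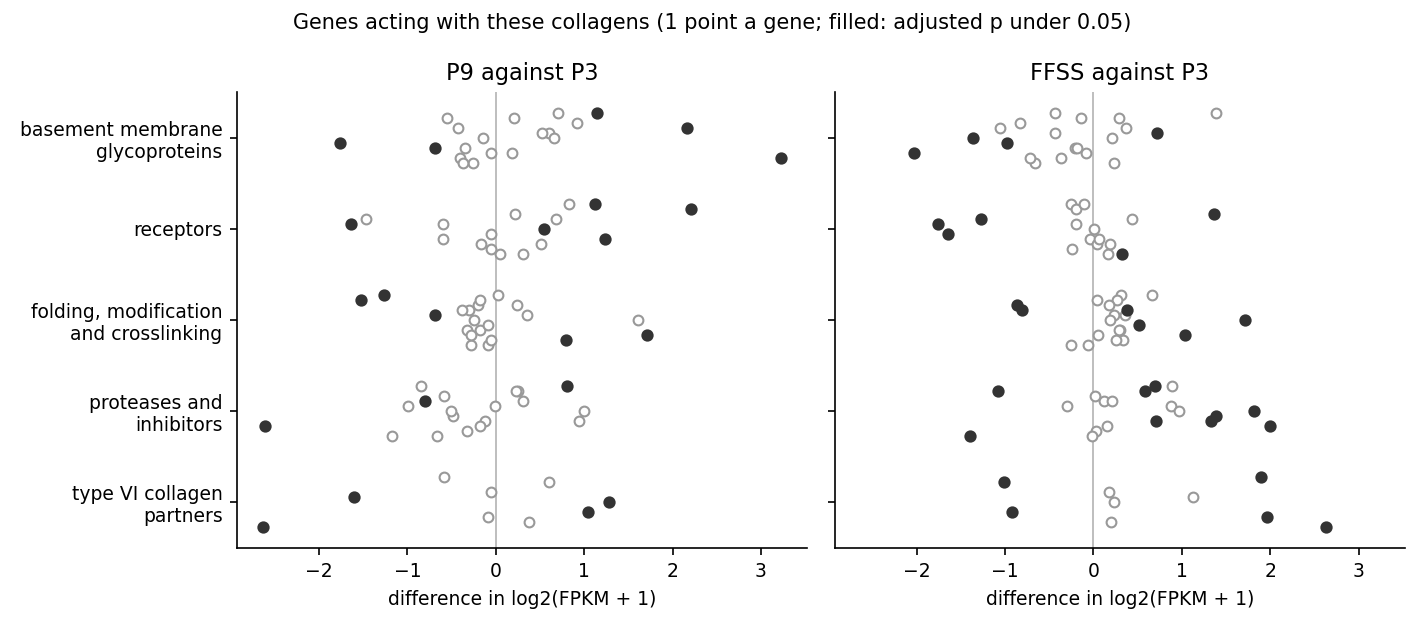
Difference in log2(FPKM + 1) of every tested gene of 5 lists, 1 point a gene and the list on the vertical axis, for P9 against P3 (left) and FFSS against P3 (right); filled points have an adjusted p under 0.05. In the list of proteases and inhibitors, 7 filled points are above 0 in FFSS and 1 in P9, beside 11.4% and 5.39% of all genes.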

How the data were processed

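Polyadenylated RNA of 9 libraries was analysed from 1 table of the authors' deposited FPKM for 34267 genes of Rnor_6.0. The submitters' processing notes name HISAT2 2.0.5 and featureCounts 1.5.0-p3; their settings and the strandedness are not given in the sources used here. FPKM times the deposited gene length was a whole multiple of 1 step per library for 100% of values (tolerance 0.01 of a step), which gave the fragments per gene; totals of 13264930 to 15323790 per library, and intervals or floors on them, cover counting error only. On a gene of 1 kilobase 1 fragment was 0.0619 to 0.0733 FPKM.

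Genes needed 1 FPKM or more in 3 or more libraries, which left 13059. limma 3.58.1 (R 4.3.3) fitted group means to their log2(FPKM + 1) in all 9 libraries together, with a trend, 6 residual and 2.93 prior degrees of freedom, two-sided and with Benjamini-Hochberg adjustment over all genes tested; fold changes on this scale understate those of low genes. All 9 named members passed the filter. Chain ratios were tested with exact permutation tests. The script was tested on simulated data. The closing section gives the alternatives' effect. All 10 members are named; of each list, up to 4 genes with the smallest adjusted p per comparison. For each member, the 2 genes with the nearest profile, among those with a symbol and a mean of at least 10 FPKM, are named; some results under these rules are not reported here. Of 187 listed genes 183 were matched to the table. The members and lists were chosen with earlier results of these data known. Col6a3 was matched by description and NCBI gene number. Python 3.11.15, pandas 2.3.3 and matplotlib 3.10.9 were used.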

Additional observations from a re-analysis of the deposited data

How the results depend on the processing

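Col8a2 and Col18a1 in P9 against P3, Col15a1 in FFSS against P3, and Col8a2, Col15a1 and Col18a1 in P9 against FFSS kept their direction and call under all 17 alternatives run: a pseudocount of 0.1, no filter, a filter of 5 FPKM, library totals, voom on the recovered fragments, replicate number as a block, array weights, only the 2 groups compared, and leaving out each library. Of the 9 members, P9 against P3 called 5, or 3 with no filter, 3 with the replicate block, 8 with array weights (computed gene by gene, since the default estimate did not converge) and 2 to 5 with a library left out; Col6a1 and Col6a2 had adjusted p = 0.0916 and 0.0685 with no filter and 0.0659 and 0.0578 with the block. FFSS against P3 called 1, or 8 with array weights and 2, with Col8a2 added, from the 2 groups alone. P9 against FFSS called 3, or 5 with array weights and 3 to 5 with a library left out. Signs changed for the Col6a3 row in P9 against P3 (-0.014 with array weights, -0.15 to 0.46 left out in turn), Col4a5 in FFSS against P3 (-0.20 to 0.76), and in P9 against FFSS Col4a1 (-0.23 to 0.0246), Col4a2 (-0.32 to 0.0015) and Col4a5 (-0.14 to 0.83). The log2 ratios of Col6a1 and Col6a2 to the Col6a3 row in FFSS against P3 ranged from -0.13 to 0.46 and from -0.14 to 0.52. The cause was not tested. Replicate numbers did not pair the libraries: same-numbered libraries correlated between -0.041 and 0.033 in their deviations from group means. Over all genes, calls ran from 589 to 4293 in P9 against P3 (1284), from 1178 to 8626 in FFSS against P3 (2845) and from 2537 to 7550 in P9 against FFSS (4100), each time highest with array weights. Depth limits Col15a1 in FFSS, with 32 to 65 fragments.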

Other observations

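In the direct comparison of P9 with FFSS, the receptors list had 8 genes higher and 3 lower in P9, and the enzymes that fold, modify and crosslink collagen had 3 higher and 10 lower, among 16.1% of all genes called higher and 15.3% called lower. The 10 enzymes were Lox, P4ha2, P4ha3, Plod2, Plod1, Ppib, Colgalt1, P3h1, P3h3 and P4hb; all but Lox, Plod2 and Ppib were named after their values were seen. The count of 10 was 6 without FFSS replicate 3 and up to 13 in other fits with a library left out; the count of 8 was 5 without FFSS replicate 2, and the count of 3 enzymes fell to 0 or 1 without any P3 library, P9 replicate 1 or 2, or FFSS replicate 2. The proteases list had 2 higher and 7 lower in P9, and 4 lower without P9 replicate 1 or FFSS replicate 3.

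The genes with a profile nearest to each member over the 9 libraries were found among 5987 genes with a symbol and a mean of at least 10 FPKM, by the mean absolute difference of log2(FPKM + 1) after centring on P3. For Col4a1 they were Eif4g3 (0.0589) and B3gat3 (0.0613), and for Col4a2 the nearest was Cic (0.0867). For Col6a1 they were Tmem263 (0.1005) and Chsy1 (0.103), and for Col6a2 Tmem263 (0.0787) and Zdhhc9 (0.0809), so that both chains had the same nearest gene. For Col8a1 they were Tnc (0.0959) and Plekhb2 (0.108), and for Col8a2 AC114363.1 (0.174) and Sgcd (0.202). The distances were wider for Col4a5 (Plac9, 0.186; Mllt11, 0.223), the Col6a3 row (Col5a3, 0.311; Sqle, 0.314), Col15a1 (Cdca8, 0.284; Cspg4, 0.297) and Col18a1 (LOC680254, 0.483; Pla2g16, 0.514). Nearness of profile over 9 libraries of 3 groups is a description only.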
